A study of Mus musculus with 12 samples.

Results

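Eph receptors and ephrins are cell surface proteins, some of which are known to help keep crypt cells and villus cells apart. In mouse small intestine, 9 of their genes were examined for 4 histone H3 modifications. The genes were given by name. They are the receptor genes Ephb1, Ephb2, Ephb3, Ephb4, Ephb6, Epha2 and Epha4 and the ligand genes Efna1 and Efnb2, 9 of the 21853 protein-coding genes of the annotation used. Each gene was taken with 5 kb on either side, and all peaks of the H3K4me3, H3K4me1, H3K27me3 and H3K9me3 lists that touched this window were counted.

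Eph receptors are receptor tyrosine kinases whose ligands, the ephrins, are themselves bound to the membrane of the neighbouring cell. Contact between a cell with the receptor and a cell with the ligand leads to repulsion or adhesion, which sorts the cells into separate territories. In the intestine EphB2 and EphB3 are known as receptors of crypt cells that are switched on by Wnt signalling, while B-type ephrins are known to be more abundant towards the villus. H3K4me3 marks the starts of active or poised genes, H3K4me1 marks enhancers and the flanks of starts, H3K27me3 is the mark of Polycomb repression and H3K9me3 marks heterochromatin.

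The study asked how cleavage of histone H3 tails in the intestine relates to the modifications these tails carry, and set crypts, which hold stem and dividing cells, against villi, which hold mostly differentiated enterocytes. Villi were scraped from opened small intestine and crypts were released afterwards with EDTA, so each fraction is bulk tissue and not a sorted cell type. Chromatin of each fraction, with 5% Drosophila S2 chromatin added, was immunoprecipitated and sequenced, giving 1 library per compartment and modification. The labels name the mouse, the tissue and the antibody, and strain, sex and age are not given in the sources used here. With 1 library per group the comparisons have no replicate check, and the crypts were not tested against the villi. A peak list cannot tell fewer cells with a mark from less of the mark in each cell, and it holds no read counts, so that depth is unknown. The study reported that intensities scaled to the Drosophila chromatin fell strongly in villi for the marks other than H3K27me3, and ascribed this to cleavage. Widths and ranks of peaks carry no such scaling, and the part of cleavage in them was not tested.

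The lists hold 16489 H3K4me3 peaks in crypts and 16977 in villi, 54642 and 55341 for H3K4me1, 7611 and 13797 for H3K27me3, and 2126 and 2089 for H3K9me3. Genes that mark other cells were looked up for H3K4me3 within 1 kb of a start. All 4 epithelial markers had a peak in both compartments, and so had all 7 villi markers, while the 6 crypts markers had 5 peaks in the crypts library and 4 in the villi library. Of 4 lymphocyte markers none had a peak in crypts and 3 had one in villi, namely Ptprc, Cd3e and Cd8a. The counts in crypts and villi were 0 and 1 of 4 for endothelium, 1 and 2 of 4 for mesenchyme, and 1 and 1 of 4 for neurons and glia. The endothelial gene was Kdr and the mesenchymal gene called in villi only was Col1a1, while Pecam1, Cdh5, Tek and Acta2 had no peak of the 4 marks at a start. The villi library therefore carried H3K4me3 at lymphocyte, endothelial and mesenchymal markers that was not called in crypts, and their part in the differences at Eph and ephrin genes was not tested.

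Some of the sequences on which the results turn are printed first, from RefSeq on GRCm38, each in the direction of its gene. The short words CTTTGAT and CTTTGAA are the core of the sites of TCF/LEF factors, which carry the Wnt signal, and they were searched on both strands, so that ATCAAAG and TTCAAAG count too. Shown are bases upstream of Ephb2 and Ephb3, the B receptors of crypts, of Epha2, the A receptor whose H3K4me3 was wider in villi, and a region before Ephb3 that carried H3K4me1 only in crypts. Capitals mark the words, which occur in the Epha2 bases and in the Ephb3 upstream region and not in the bases next to the Ephb2 and Ephb3 starts.
Ephb2, chr4:136836013-136836262, reverse strand: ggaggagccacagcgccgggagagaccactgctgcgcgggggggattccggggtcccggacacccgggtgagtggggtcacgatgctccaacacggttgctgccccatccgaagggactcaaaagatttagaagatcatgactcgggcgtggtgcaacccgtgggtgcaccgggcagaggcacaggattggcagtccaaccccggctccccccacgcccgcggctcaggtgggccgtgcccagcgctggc
Ephb3, chr16:21204545-21204754, forward strand: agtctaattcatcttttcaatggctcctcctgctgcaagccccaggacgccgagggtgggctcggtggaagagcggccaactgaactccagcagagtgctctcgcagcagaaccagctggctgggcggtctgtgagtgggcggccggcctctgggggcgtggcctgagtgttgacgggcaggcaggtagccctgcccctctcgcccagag
Epha2, chr4:141300971-141301220, forward strand: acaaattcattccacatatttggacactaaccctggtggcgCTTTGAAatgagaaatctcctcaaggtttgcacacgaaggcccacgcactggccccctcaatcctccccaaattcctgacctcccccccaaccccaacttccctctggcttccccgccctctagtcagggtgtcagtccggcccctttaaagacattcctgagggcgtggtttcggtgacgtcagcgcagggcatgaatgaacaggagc
Ephb3 upstream region, chr16:21202179-21202478, forward strand: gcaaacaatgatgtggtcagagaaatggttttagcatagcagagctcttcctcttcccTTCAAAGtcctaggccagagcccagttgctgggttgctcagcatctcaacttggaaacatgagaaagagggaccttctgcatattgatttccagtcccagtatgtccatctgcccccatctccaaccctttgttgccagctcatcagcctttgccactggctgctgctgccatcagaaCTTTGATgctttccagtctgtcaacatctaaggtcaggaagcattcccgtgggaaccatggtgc

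For Ephb1 and Ephb6, the members with H3K27me3 at the start, capitals mark CpG dinucleotides, in which promoters held by Polycomb are known to be rich.
Ephb1, chr9:102354694-102354943, reverse strand: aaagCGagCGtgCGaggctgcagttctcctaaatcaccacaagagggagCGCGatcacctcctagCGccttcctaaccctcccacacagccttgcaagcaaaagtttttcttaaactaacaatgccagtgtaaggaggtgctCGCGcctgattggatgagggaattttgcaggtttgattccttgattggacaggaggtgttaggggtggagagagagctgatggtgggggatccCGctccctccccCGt
Ephb6, chr6:41605261-41605481, forward strand: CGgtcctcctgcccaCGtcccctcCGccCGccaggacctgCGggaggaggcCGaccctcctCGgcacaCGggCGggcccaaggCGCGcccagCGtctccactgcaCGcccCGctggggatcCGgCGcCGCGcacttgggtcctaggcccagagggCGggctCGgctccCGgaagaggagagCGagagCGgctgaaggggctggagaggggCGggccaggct

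RefSeq windows of 300 bases, from 250 before a start to 50 after it, were found for all 9 genes, with 10 windows in all since Efna1 has 2. A TCF/LEF word occurred in 1 of the 10, that of Epha2, against 8.65% of all 32851 such windows. The absence of these letters from the other 9 says nothing about binding elsewhere. The windows of the members held between 10 (Epha2) and 35 (Efnb2) CpG, against a median of 7 over all windows, and Ephb1 held 14 and Ephb6 34.

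H3K4me3 was called at the start of 8 members in crypts and of all 9 in villi, where a start means 1 kb on either side of the first base of a protein-coding transcript. Over all genes, 57.7% had such a peak in crypts and 57.9% in villi. The member that differed was Ephb1, whose promoter had H3K4me3 in villi only, as did 1.27% of all genes, and no member had it in crypts only, as did 1.06%. The windows of 8 members in crypts and 9 in villi held at least 1 H3K4me3 peak, against 63.2% and 63.5% of all genes. Over the whole windows 11 H3K4me3 peaks were found in crypts and 14 in villi. Of these, 10 in each compartment overlapped a peak of the other one, 90.9% in crypts and 71.4% in villi, against 93.3% and 90.6% of the whole lists.

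The width of the peak at the start was compared next. Of the 8 members with 1 start peak in each compartment, 3 were at least 1.5-fold narrower in villi and all 3 were B receptors, Ephb2, Ephb3 and Ephb4. Another, the A receptor Epha2, was at least 1.5-fold wider in villi, and the other 4 were neither. At a fold of 2, Ephb3 alone was narrower and 0 members were wider, and with the top 50% of each list by score Ephb4 alone was narrower and Epha2 wider. In that top 50% the villi start peaks of Ephb2 (percentile 42.3) and Ephb3 (40.4) were left out, so these genes gave no pair. Shares of all pairs were not counted for these settings. Among 10297 pairs of start peaks over all genes, 3.08% were at least 1.5-fold narrower in villi and 2.86% at least 1.5-fold wider. The median log2 ratio of the widths, villi over crypts, was -0.04 over all pairs, with quartiles of -0.16 and 0.08, and -0.10 over the 8 members. The fold of 1.5 and the look at widths were chosen with the peaks in view.

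**Figure D1:**
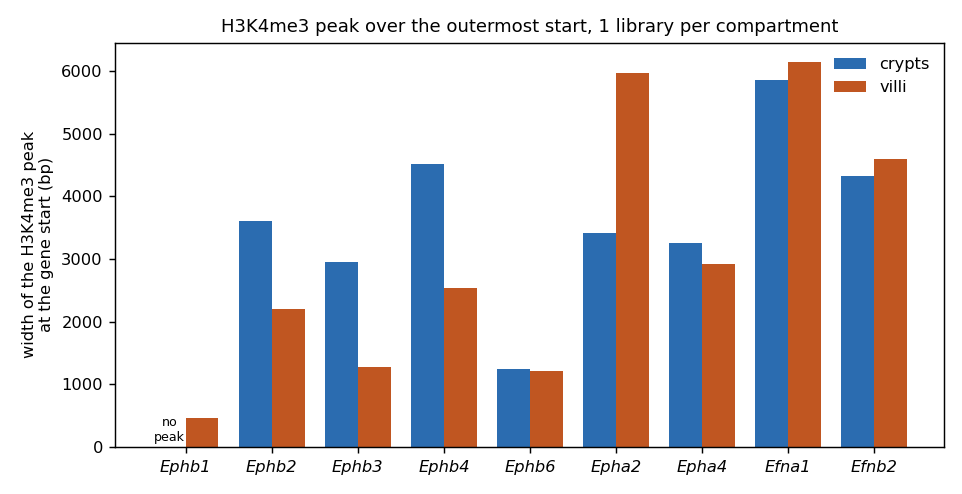
Bars give the width in bp of the H3K4me3 peak over the outermost start of each gene in crypts (blue) and villi (orange), 1 library each, without error bars. The villi bars of Ephb2, Ephb3 and Ephb4 are shorter by at least 1.5-fold and that of Epha2 is longer by as much (3415 bp in crypts, 5980 bp in villi), the other 4 pairs differ by less, and Ephb1 has no peak in crypts.

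**Figure D2:**
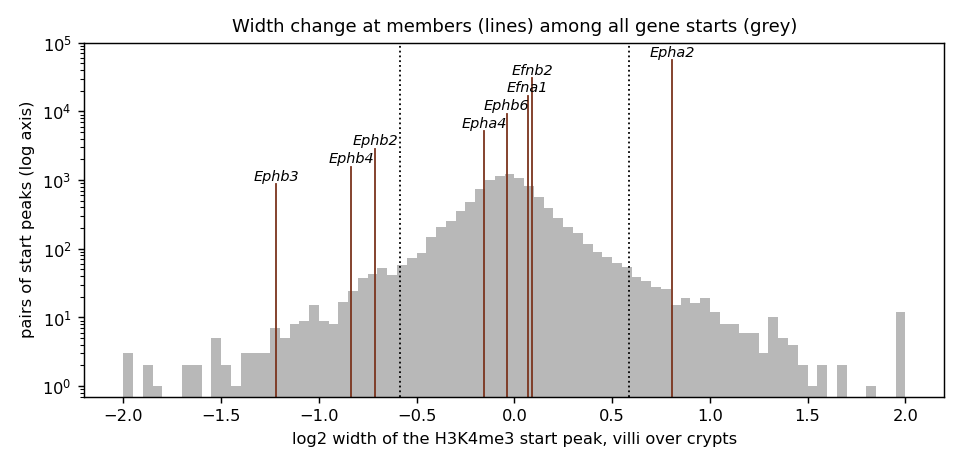
The grey histogram, on a log axis, shows the log2 ratio of H3K4me3 start peak widths, villi over crypts, for 10297 pairs, with ratios beyond the axis placed in the outermost bins, and lines mark the 8 members with a pair. Dotted lines stand at 1.5-fold, with Ephb3, Ephb4 and Ephb2 to the left of them and Epha2 to the right.

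Ephb3, a B receptor known for its part in placing Paneth cells at the crypt base, had the lowest ratio of widths of the 8, while the difference in base pairs was greater at Ephb4. Its gene lies on chromosome 16 from 21204755 to 21223305 on the forward strand. The start peak was 2956 bp wide in crypts (21204476 to 21207431) and 1270 bp in villi (21204500 to 21205769), a log2 ratio of -1.22. This ratio was at percentile 0.291 of all pairs, counted from the lowest. The upstream edge of the peak differed by 24 bp between the libraries, whereas the edge inside the gene reached 2676 bp past the start in crypts and 1014 bp in villi. A second H3K4me3 peak of 981 bp, from 21210636 to 21211616, was called in crypts only and lay over one of the inner starts of the gene. It was a weak peak, at percentile 12.5 of its list by score. The TCF/LEF words of the region printed above lie outside both H3K4me3 peaks.

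Ephb4, the receptor of ephrin-B2 that is best known from veins, lies on chromosome 5 from 137350109 to 137378669. Its H3K4me3 start peak was 4517 bp wide in crypts (137348300 to 137352816) and 2534 bp in villi (137348718 to 137351251). The log2 ratio of -0.83 was at percentile 1.12 of all pairs. Most of the difference lay inside the gene, where the peak reached 2707 bp past the start in crypts and 1142 bp in villi. Its upstream reach was 1809 and 1391 bp.

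Ephb2, the B receptor whose level is known to grade along the crypt, lies on chromosome 4 from 136647539 to 136835988 on the reverse strand. The start peak was 3610 bp wide in crypts (136833551 to 136837160) and 2203 bp in villi (136834683 to 136836885). The log2 ratio was -0.71, at percentile 1.89 of all pairs. Here too the inner edge differed more than the upstream edge, since the peak reached 2437 bp past the start in crypts and 1305 bp in villi but 1172 and 897 bp before it. In villi a further peak of 787 bp without a counterpart in crypts lay in an intron, 33.4 kb inside the gene, at percentile 18.1 of its list.

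The rank of the start peak in its own list is given for these 3 receptors, and it was lower in villi also at Epha4 (41.7 in crypts, 40.8 in villi) and slightly at Efna1. The percentile by score was 53.6 in crypts and 42.3 in villi for Ephb2, 47.0 and 40.4 for Ephb3, and 67.2 and 54.3 for Ephb4. The genes taken as crypts markers gave 4 pairs of start peaks, with a median log2 ratio of -0.72, and 2 of them were at least 1.5-fold narrower in villi. The 7 pairs of the villi markers had a median of 0.22, with 1 at least 1.5-fold wider.

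Epha2, an A receptor of epithelia that binds ephrin-A1, differed in the opposite direction. The gene lies on chromosome 4 from 141301240 to 141329384 on the forward strand. Its start peak was 3415 bp wide in crypts (141301020 to 141304434) and 5980 bp in villi (141300905 to 141306884). The log2 ratio of 0.81 was at percentile 98.6 of all pairs. The peak was at percentile 86.0 of the crypts list by score and at 99.4 of the villi list. Of the extra length, 2450 bp lay inside the gene and 115 bp upstream. Farther inside, 2 more H3K4me3 peaks of 1175 bp and 1581 bp were called in villi only, 8.01 kb and 11.2 kb past the start, at percentiles 13.6 and 13.1 of their list.

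The ligand genes kept wide H3K4me3 peaks in both compartments. Efna1, which encodes the membrane-anchored ligand ephrin-A1, lies on chromosome 3 from 89271733 to 89281142. Its start peak was 5867 bp wide in crypts against 6149 bp in villi, a log2 ratio of 0.07, and stood at percentiles 95.7 and 95.4 of the lists. The other 2 H3K4me3 peaks of its window, present in both compartments, lay over the starts of the neighbours Dpm3 and Slc50a1 and not over Efna1. Efnb2, which encodes the transmembrane ligand ephrin-B2, lies on chromosome 8 from 8617434 to 8661242. It had a peak of 4322 bp in crypts against 4604 bp in villi, a log2 ratio of 0.09. By score it stood at percentile 74.8 of the crypts list and 93.7 of the villi list.

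For the other 2 receptors with a pair, the widths were close. Epha4, a receptor that binds ephrins of both types and lies on chromosome 1 from 77367185 to 77515088, had 3251 bp in crypts against 2919 bp in villi, a log2 ratio of -0.16. Ephb6, a receptor without kinase activity on chromosome 6 from 41605482 to 41620509, had 1252 bp and 1219 bp, a log2 ratio of -0.04, and ranked at percentile 23.2 in crypts and 35.6 in villi. Both ratios lay between the quartiles of all pairs.

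**Figure D3:**
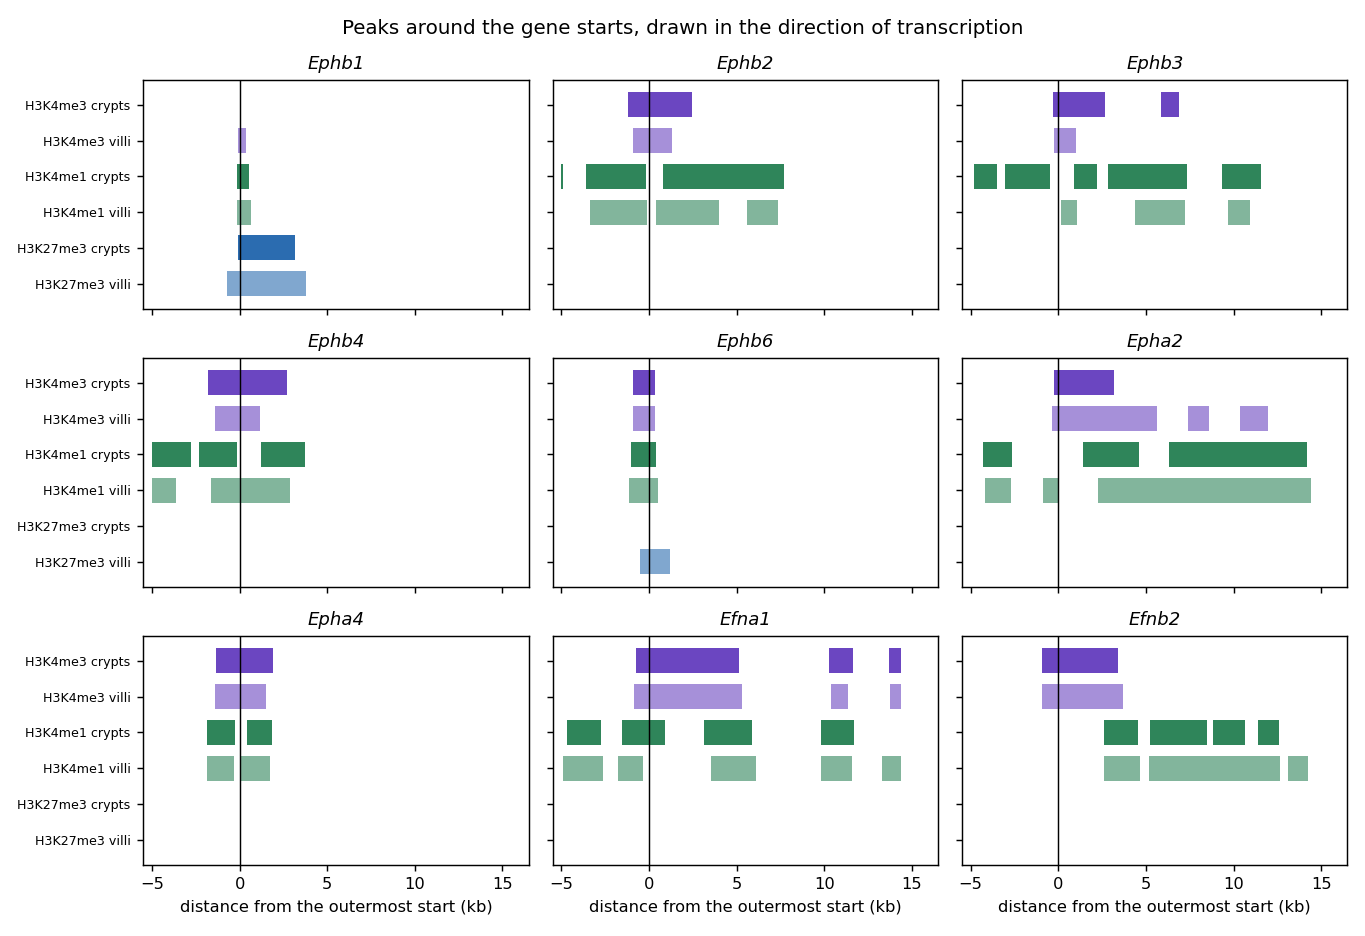
Called peaks of H3K4me3 (purple), H3K4me1 (green) and H3K27me3 (blue) are drawn to scale around the outermost start of each gene, in crypts (dark) and villi (pale), with distance in kb along the direction of transcription and peaks clipped to the gene and its 5 kb flanks. The H3K4me3 bars of Ephb2, Ephb3 and Ephb4 end nearer to the start in villi, that of Epha2 ends farther away, and H3K27me3 appears at Ephb1 in both compartments and at Ephb6 in villi.

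H3K27me3 was found at the start of 1 member in crypts and 2 in villi, against 13.1% and 16.1% of all genes. Its peaks touched the window of 1 member in crypts and 3 in villi, against 17.9% and 23% of all genes. Ephb1, a receptor best known from neurons, lies on chromosome 9 from 101922128 to 102354693 on the reverse strand and carried the mark in both. Its start peak was 3246 bp wide in crypts (102351545 to 102354790) and 4495 bp in villi (102350919 to 102355413). The log2 ratio of 0.47 was at percentile 61.4 of 1829 such pairs, whose median was 0.32, and it was not past 1.5-fold, which 32% of these pairs exceeded in the wider and 3.66% in the narrower direction. By score the peak was at percentile 59.4 in crypts and 96.1 in villi. A further H3K27me3 peak of 1207 bp in crypts lay in an intron of Ephb1, 86.7 kb past the start, and had no counterpart in villi. It was a weak peak, at percentile 15.6 of its list. So 1 of 2 crypts peaks and 1 of 4 villi peaks of the mark were shared over the 9 genes, against 90.4% and 44.4% of the whole lists.

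Of the H3K4me3 start peaks, that of Ephb1 was the narrowest and the lowest in rank. This peak in villi was 457 bp wide, from 102354339 to 102354795, lay wholly within the H3K27me3 peak and stood at percentile 0.987 of its list. A single H3K4me1 peak sat at the same start, 664 bp wide at percentile 20.6 in crypts and 779 bp at percentile 68.4 in villi, and no other H3K4me1 peak lay over its 432566 bp. The promoter of Ephb1 thus had H3K4me3 and H3K27me3 together in villi, as had 7.87% of all promoters, against 6.59% in crypts. The endothelial marker Kdr and the mesenchymal marker Col1a1 had the same promoter pattern as Ephb1 over the 8 lists, with H3K4me3 in villi only. The other markers of these cells did not. Pecam1, Cdh5, Tek and Acta2 had none of the marks, Des had no H3K4me3 and Pdgfra had it in both compartments. The part of endothelial or mesenchymal cells in the Ephb1 result was not tested.

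Ephb6 had an H3K27me3 peak of 1674 bp, from 41604981 to 41606654, in villi only. Promoters of 3.62% of all genes had H3K27me3 in villi alone and 0.631% in crypts alone. The peak overlapped the H3K4me3 peak of Ephb6 by 825 bp and was close to the threshold of the calls, at percentile 7.05 of its list. The other H3K27me3 peaks were 2 short ones of 704 bp and 430 bp in villi, which lay beyond the 3′ end of Ephb2. No H3K27me3 was called in either compartment over Ephb3, Ephb4, Epha2, Epha4, Efna1 or Efnb2.

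H3K9me3 was not called over any of the 9 windows in either compartment. Over all genes the mark touched 3.89% of such windows in crypts and 3.11% in villi, and its presence at a start was 0.38% and 0.311%, so that none in 9 genes is near the background.

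H3K4me1 made up most of the peaks, with 50 in crypts and 47 in villi over the 9 genes. Of these, 42 in crypts (84.0%) and 41 in villi (87.2%) overlapped a peak of the other compartment, against 81.7% and 82.1% of the whole lists. A promoter peak was present at 8 members in crypts and all 9 in villi, against 57.9% and 56.1% of all genes. Epha2 was the member with promoter H3K4me1 in villi only, as had 3.95% of all genes, and no member had it in crypts only, as had 5.69%. The call at Epha2 depends on the distance, since a crypts peak began 1385 bp past the start and, with 2.5 kb on either side, all 9 members had the mark in crypts. All 9 windows held the mark in both compartments, against 69.1% of all genes in crypts and 68.8% in villi. For Efnb2 the promoter peak lay at an inner start in both compartments and not at the outermost one.

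The covered length differed more than the presence. The base pairs of the window under H3K4me1 peaks were at least 1.5-fold lower in villi for 3 members, Ephb2, Ephb3 and Epha4, and at least 1.5-fold higher for 1, Epha2. Among 14443 genes with H3K4me1 in both compartments, 12.6% were that much lower in villi and 11.9% that much higher. The median log2 ratio was 0.02 over these genes and 0.08 over the 9 members.

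**Figure D4:**
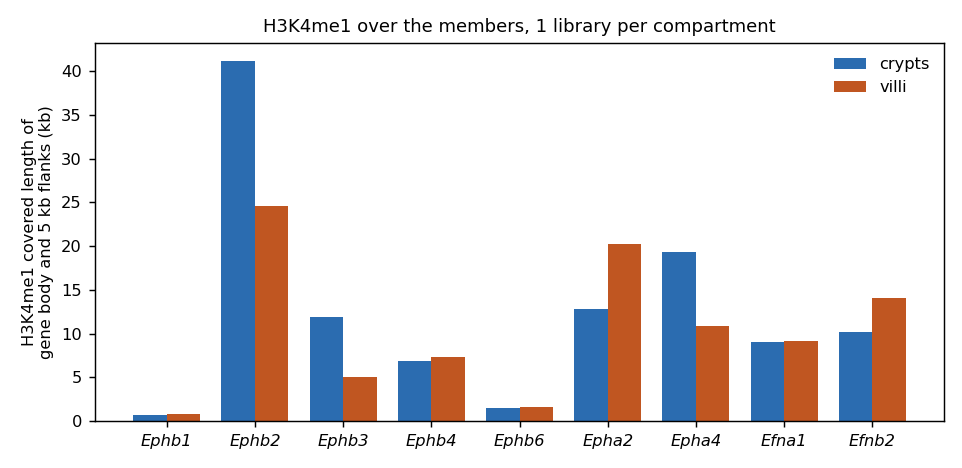
Bars give the length in kb of each gene and its 5 kb flanks that lay under H3K4me1 peaks in crypts (blue) and villi (orange), 1 library each, without error bars. Ephb2, Ephb3 and Epha4 had less covered length in villi, and Epha2 and Efnb2 had more.

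Ephb2 had the most base pairs under H3K4me1 of the 9 genes, though only 20.8% of its long window in crypts and 12.4% in villi, with 41212 bp under 17 peaks in crypts and 24557 bp under 16 in villi. The log2 ratio was -0.75, at percentile 8.92 of all genes. Nearly the same places were marked, since 3 of the 17 crypts peaks and 1 of the 16 villi peaks lacked a counterpart, but the villi peaks were shorter. Where 1 peak met 1 peak inside the window, all 11 pairs of Ephb2 were narrower in villi, whereas 50.7% of 38608 pairs of the whole lists were. These pairs come from 1 gene and 1 library each and are not replicates.

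The pair of Ephb2 peaks that differed most lay 85.4 kb inside the gene. It was 4042 bp wide in crypts against 437 bp in villi. A peak of 6924 bp just inside the start, at percentile 96.9 of the crypts list, was met in villi by 2 peaks of 1781 bp and 3572 bp. The 3 crypts peaks without a counterpart lay 18.9, 73.3 and 123.5 kb past the start and were 2657, 3349 and 1697 bp wide. One crypts peak upstream of Ephb2 reached only 82 bp into the window, and its villi counterpart of 3361 bp lay 12 bp beyond it and is not among the 16.

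At Ephb3 the H3K4me1 peaks covered 11925 bp in crypts against 5040 bp in villi, a log2 ratio of -1.24, at percentile 3.59 of all genes. The crypts library had 5 peaks and the villi library 3. Both peaks upstream of the start, from 21199951 to 21201256 and from 21201700 to 21204258, were called in crypts only. They were of middle rank in the list, at percentiles 50.3 and 50.7. The 3 peaks inside the gene were present in both and were narrower in villi, the central one measuring 4496 bp in crypts against 2880 bp in villi. All 3 ranked higher in villi than in crypts, the central one at percentiles 93.1 in crypts and 97.4 in villi, the one nearest the start at 6.50 and 43.7, and the third at 47.1 and 89.6.

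The crypts-only peak next to the Ephb3 start held 5 TCF/LEF words in its 2559 bp. Windows of that length centred on the 54642 crypts H3K4me1 peaks held as many in 0.688% of cases. The printed region of 300 bases, ending 2277 bp upstream of the start, holds 2 of the 5, and 1.02% of centred windows of 300 bases held at least 2. This peak and region were chosen after their words had been seen, and a word is a match of letters and not a measured site. Over all H3K4me1 peaks of the 9 genes the words were no denser than in the lists, with 0.386 per kb in crypts against 0.445, and 0.306 in villi against 0.432.

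Epha4 had 10 H3K4me1 peaks over 19363 bp in crypts and 8 over 10873 bp in villi, a log2 ratio of -0.83, at percentile 7.30. The difference lay within the gene body and not at the start. At the start, the 2 flanking peaks measured 1415 bp and 1641 bp in crypts and 1658 bp and 1544 bp in villi. Between 40.1 and 82.3 kb past the start, 3 crypts peaks of 889, 805 and 676 bp had no counterpart. They were weak to middling, at percentiles 30.4, 13.7 and 9.88 of the crypts list. The 4 pairs of single peaks there were all narrower in villi. By score they ranked at 71.1, 78.4, 62.3 and 64.8 in crypts and at 22.8, 27.1, 1.30 and 30.3 in villi. One of these pairs, 40.1 kb past the start, was 3549 bp wide in crypts against 1252 bp in villi.

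**Figure D5:**
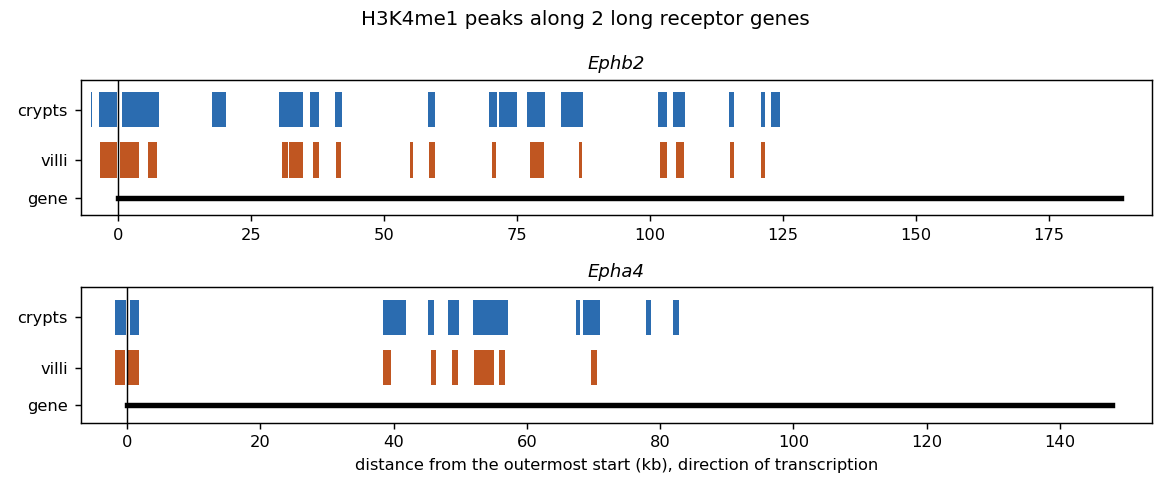
H3K4me1 peaks of crypts (blue) and villi (orange) are drawn to scale along Ephb2 and Epha4, with the gene as a black line, distance from the outermost start in kb and peaks clipped to the gene and its 5 kb flanks. Villi peaks stand at most of the crypts positions, and many are shorter, as at 85.4 kb in Ephb2 and at 40.1 kb in Epha4, whereas the peaks next to the Epha4 start are of similar width.

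Epha2 differed in the other direction for this mark too. H3K4me1 covered 12795 bp in crypts against 20266 bp in villi, a log2 ratio of 0.66, at percentile 90.3. Crypts peaks of 3233 bp and 7856 bp inside the gene were met in villi by a single peak of 12164 bp, which stood at percentile 99.9 of its list. In villi, 3 further peaks were without a counterpart. They measured 842 bp just before the start, 4791 bp over the last part of the gene and 980 bp beyond its end.

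Efnb2 had 10206 bp of H3K4me1 in crypts and 14020 bp in villi, a log2 ratio of 0.46, which is below the fold of 1.5. Inside the gene, 3 crypts peaks of 1202, 1851 and 3244 bp were met by 1 villi peak of 7471 bp, which ran from 5173 to 12643 bp past the start, at percentile 98.0 of the villi list. All 3 pairs of single peaks at Efnb2 were wider in villi. Over all members, 24 of 31 such pairs were narrower in villi, against 50.7% of the pairs of the whole lists. Their median log2 ratio was -0.25, against -0.01 for the whole lists, and 11 of the 31 came from Ephb2. Ephb4, Efna1, Ephb6 and Ephb1 had log2 ratios of 0.08, 0.01, 0.14 and 0.23 for covered length.

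Around an active start H3K4me1 usually leaves a gap that H3K4me3 fills. The outermost start lay inside an H3K4me1 peak at 3 members in crypts and 3 in villi. Among the 8 members whose start was inside H3K4me3 in both compartments, which leaves out Ephb1, these were 2 and 2, against 19.8% and 21% of 10852 such genes. Ephb4 was the member whose start was covered in villi and not in crypts, as at 5.94% of these genes. Its crypts peaks, from 137347798 to 137349938 and from 137351309 to 137353830, left a gap of 1370 bp at the start, which a single villi peak of 4532 bp bridged. The gap at the start was 989 bp in crypts against 520 bp in villi for Ephb2, 658 and 410 bp for Epha4, 4006 and 2298 bp for Epha2 and 16406 and 15836 bp for Efnb2. At Ephb3 it was 1376 bp in crypts against 102023 bp in villi, where no peak was called upstream over that distance. The gap therefore had no single direction among the members with narrower H3K4me3. At Efna1, the start was inside an H3K4me1 peak in crypts and outside in villi, where the nearest peak measured 1403 bp against 2497 bp in crypts, as at 4.72% of these genes.

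The remaining Eph and ephrin genes of the mouse were looked up for comparison. Of these 13 genes, 8 had H3K4me3 at a start in crypts and 6 in villi, and 8 had H3K27me3 in each, against 1 and 2 of the 9 members. Efna2 and Efna5 had H3K4me3 in crypts and not in villi, with H3K27me3 in both compartments. Efna2 and Epha10 had promoter H3K4me1 in villi only. Ephb2, Ephb3, Ephb4, Epha4, Efna1 and Efnb2 shared 1 pattern, H3K4me3 and H3K4me1 at a start in both compartments and neither of the other marks, which 8745 genes had, 40.0% of all. Of the 13, Epha1, Efna3 and Efna4 had this pattern as well. No other family gene had the pattern of Ephb1, Ephb6 or Epha2, which were found at 0.453%, 1.30% and 1.88% of all genes. Among 6 pairs of start peaks of the 13 genes, 1 was at least 1.5-fold narrower in villi, Efna4, with 2358 bp in crypts against 1354 bp in villi, and none was that much wider. Efna4 was singled out after its values were seen.

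The 15 genes that act with Eph receptors, among them adaptors, kinases, the protease Adam10 and the adhesion protein E-cadherin (Cdh1), all had H3K4me3 at a start in both compartments. All 15 had promoter H3K4me1 in crypts and 13 had it in villi, where it was not called at Adam10 and Inppl1. H3K27me3 was at 2 of them in both compartments, against 13.1% of all genes in crypts and 16.1% in villi. H3K9me3 was at 1 of them in both, against 0.38% and 0.311%. Of 14 pairs of start peaks none was at least 1.5-fold narrower in villi and 2 were at least 1.5-fold wider. These were the kinase genes Src, with 546 bp in crypts against 1353 bp in villi, and Fyn, with 1455 bp and 2208 bp, named after their values were seen. The median log2 ratio of the 14 pairs was 0.07. Fyn is known from T cells as well, and the villi library carried H3K4me3 at 3 of 4 lymphocyte markers, whose part here was not tested.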

How the data were processed

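ChIP-seq with a Drosophila spike-in was made from crypts and villi of mouse small intestine, in 12 libraries, of which the lists of 8 were used here. Per the study's methods, the authors used bowtie 1.1.2 for alignment to the mouse (mm10) and fly (dm6) genomes, samblaster against duplicates and MACS2 2.1.1 for peaks at a p-value of 1e-10, versions being those of the submitters' processing notes. H3K9me2 lists and inputs were not used here. Each deposited list gives a position and a score, taken as the authors' −log10 p-value since none was below 10, although a q-value on that scale is possible. The score is not scaled by the spike-in and was used only to rank peaks within a list, as a percentile with 100 the highest.

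All peaks lay within the chromosome lengths of GRCm38, the assembly that mm10 names. Genes and starts came from GENCODE M21. Peaks were taken as shared at an overlap of 1 bp or more, with Python 3.11.15, NumPy 2.4.6 and pandas 2.3.3 in place of the bedtools first planned, and figures were drawn with Matplotlib 3.10.9. The overlap code was tested on simulated data. A start pair is 1 peak per compartment within 1 kb of the outermost start, which overlap each other. Depth is unknown, and peak width depends on it. The members, lists and alternatives were chosen with earlier results of these data known. All 9 members are named, and other genes where a promoter mark differed between compartments or matched a member, except where the text says otherwise.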

Additional observations from a re-analysis of the deposited data

How the results depend on the processing

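With 1 library per group no replicate could be left out. No paired analysis was possible because the groups have 1 library each. Of the 23 alternative values not within 1.5 times of the reported ones, 17 came from keeping the top 50% of each list by score. That cut removes peaks by construction. A fold of 2 for the widths moved 2 values. With the top 50% of each list by score, the windows held 6 H3K4me3 peaks in crypts and 5 in villi, of which 5 and 5 were shared, 32 and 26 H3K4me1 peaks, of which 22 and 19 were shared, and 1 H3K27me3 peak in each compartment. Promoter peaks were then left at 5 members in crypts and 4 in villi for H3K4me3, at 5 in crypts for H3K4me1 and at 1 in villi for H3K27me3. The H3K27me3 of Ephb6 and Ephb2 in villi came to 0 bp and 0 bp, and it was 0 bp at Ephb2 also with the gene body alone, which left 2 H3K27me3 peaks in villi. Flanks of 20 kb gave 17 H3K4me3 peaks in crypts and 8 H3K27me3 peaks in villi. Alternatives added after the data were seen concerned the widths of H3K4me3 start peaks. At a fold of 2, 1 member was narrower in villi and 0 were wider, and with the top 50% of each list by score 1 was narrower and 1 wider, whereas a looser fold or merging peaks under 1 kb apart left both counts within 1.5 times. Of 124 alternative values, 48 were 0 against a reported 0, as for H3K9me3, and say little on stability. Of the other 76, 53 were within 1.5 times of the reported values and 23 were not.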
